A study of Mus musculus with 8 samples.

Results

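The regions described here are 200 bp tiles of the mouse genome whose CpG methylation was listed as changed in BrafV600E colon organoids of both organoid lines studied, and was listed as changed in neither line after long culture without the oncogene. They were chosen from the authors' deposited tables by 3 requirements. A tile had to appear in the gain or the loss table of the line 1 BrafV600E comparison, had to appear in one of the 2 tables of the line 3 comparison, and had to be absent from the 4 tables of the long-culture comparisons. This gave 3079 tiles of the 53375 distinct tiles that the 8 tables list. Of the 5934 tiles listed with BrafV600E in both lines, the other 2855 were also listed after long culture, 521 of them in line 1 only, 1740 in line 3 only and 594 in both.

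The organoids were grown from the proximal colon of male mice of about 40 days, and every line, controls included, carried a heterozygous Cre-activable BrafV600E allele. In the BrafV600E group, lentiviral Cre had activated the allele, and after 5 months the organoids were selected for growth without niche factors (Base medium) for a further 3 weeks; full medium contains Wnt3a, R-Spondin, Noggin and EGF. The controls of that comparison received an empty vector (EV), left the allele inactive and were kept for 5 months and the same further 3 weeks in full medium. For long culture, EV organoids in full medium at 12 months (line 1) or 14 months (line 3) were compared with EV organoids at 2 months. Methylation was measured by reduced representation bisulfite sequencing, which enriches for CpG-rich fragments. Each group was 1 library in each line, so every comparison set 1 library against 1 library and no spread between replicates could be computed. Because the Cre and EV groups also differed in medium, BrafV600E, Base medium and the selection in it cannot be told apart. The labels conflict in 2 places. The source label of the line 1 BrafV600E library names line 3, and the culture-time label of the long-culture library of line 3 gives 2 months. The sample titles were followed in both cases. Expression data were not analysed here, so the cell type of the organoids was not checked against markers.

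Cytosine methylation at CpG sites is copied to daughter strands by the maintenance methyltransferase and removed passively through division or actively by TET enzymes. CpG-dense promoters are mostly unmethylated in normal epithelium, while CpG-poor sequence between and within genes is mostly methylated. In human colon, the same BRAF mutation is typical of serrated tumours, many of which show methylation of many CpG-dense promoters together, called the CpG island methylator phenotype. Gain of methylation also accumulates with age and with culture, and the long-culture comparison measures culture time without the activated oncogene.

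Promoter sequence was available for the stretches of tiles upstream of, or up to 50 bases past, a RefSeq transcription start (GRCm38.p6). Of the 3079 tiles, those overlapping such a window did so at 235 promoters of 223 genes. The first 4 stretches lie in tiles that gained in both lines and belong to genes with 4 such tiles, the fifth is from a tile that lost in both lines, and the last 2 are from tiles with opposite directions in the lines. They are given 5′ to 3′ on the gene's strand, from RefSeq, with each CpG in capitals, to show how CpG-rich the sequence was.
Fgfr4: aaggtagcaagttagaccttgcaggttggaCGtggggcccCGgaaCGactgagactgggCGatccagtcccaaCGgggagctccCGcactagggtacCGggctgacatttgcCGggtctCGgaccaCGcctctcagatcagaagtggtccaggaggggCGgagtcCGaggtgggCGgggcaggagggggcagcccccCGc
Tmem30b: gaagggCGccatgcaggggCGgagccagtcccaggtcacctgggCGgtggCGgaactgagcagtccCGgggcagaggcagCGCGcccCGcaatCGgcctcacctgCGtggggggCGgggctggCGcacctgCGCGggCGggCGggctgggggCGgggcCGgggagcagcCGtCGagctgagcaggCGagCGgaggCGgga
Zfp422: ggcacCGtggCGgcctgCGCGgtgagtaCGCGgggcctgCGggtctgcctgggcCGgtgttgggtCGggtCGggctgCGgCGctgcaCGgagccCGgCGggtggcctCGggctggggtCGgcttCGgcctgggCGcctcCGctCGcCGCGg
Foxl2: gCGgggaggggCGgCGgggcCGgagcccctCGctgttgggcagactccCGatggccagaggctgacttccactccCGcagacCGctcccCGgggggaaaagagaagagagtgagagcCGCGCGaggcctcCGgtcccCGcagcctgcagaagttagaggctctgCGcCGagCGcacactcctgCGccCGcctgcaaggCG
Ndufa13: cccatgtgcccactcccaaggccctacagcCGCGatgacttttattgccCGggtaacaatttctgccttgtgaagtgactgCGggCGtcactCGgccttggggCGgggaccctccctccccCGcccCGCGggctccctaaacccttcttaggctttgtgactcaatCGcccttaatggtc
Flot2: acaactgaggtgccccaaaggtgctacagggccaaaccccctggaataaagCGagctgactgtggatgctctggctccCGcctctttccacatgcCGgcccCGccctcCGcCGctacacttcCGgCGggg
Hoxb3os: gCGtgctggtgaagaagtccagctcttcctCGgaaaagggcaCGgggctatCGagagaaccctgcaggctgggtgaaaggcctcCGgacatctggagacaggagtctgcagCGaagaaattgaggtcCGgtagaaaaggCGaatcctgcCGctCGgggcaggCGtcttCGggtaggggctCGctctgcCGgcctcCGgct

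The Fgfr4 stretch is chr13:55152601-55152800 on the plus strand and holds 14 CpG, Tmem30b is chr12:73546401-73546600 on the minus strand with 23, Zfp422 is chr6:116628801-116628951 on the minus strand with 23, and Foxl2 is chr9:98955401-98955600 on the plus strand with 20. The loss stretch of Ndufa13, chr8:69902021-69902200 on the minus strand, holds 11 CpG. The opposite-direction stretches are Flot2, chr11:78037801-78037930 on the plus strand with 8 CpG, and Hoxb3os, an antisense transcript of the Hoxb cluster, chr11:96353401-96353600 on the minus strand with 15. The last is also a tile of Hoxb2.

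Across all 3079 tiles the larger group gained methylation in both lines. There were 1453 such tiles, 47.2% of the total (exact 95% interval 45.4% to 49.0%), with median deposited differences of 50.7 percentage points in line 1 and 50.0 in line 3. A further 950 tiles, 30.9% (29.2% to 32.5%), lost methylation in both lines, with medians of −45.8 points in line 1 and −47.3 in line 3. The remaining 676 tiles moved in opposite directions. Of these, 467 gained in line 1 and lost in line 3 (medians 41.2 and −38.9 points), and 209 lost in line 1 and gained in line 3 (−41.6 and 40.2). The same direction was thus shared by 2403 tiles, 78.0% (76.5% to 79.5%), and 60.5% (58.5% to 62.4%) of those were gains. Gains were the larger part in line 1 alone and not in line 3 alone: of the tiles listed in 1 line and in no long-culture table of that line, 66.2% gained in line 1 and 36.4% in line 3. The intervals cover the counting of tiles alone, and neighbouring tiles are not independent of each other.

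**Figure D1:**
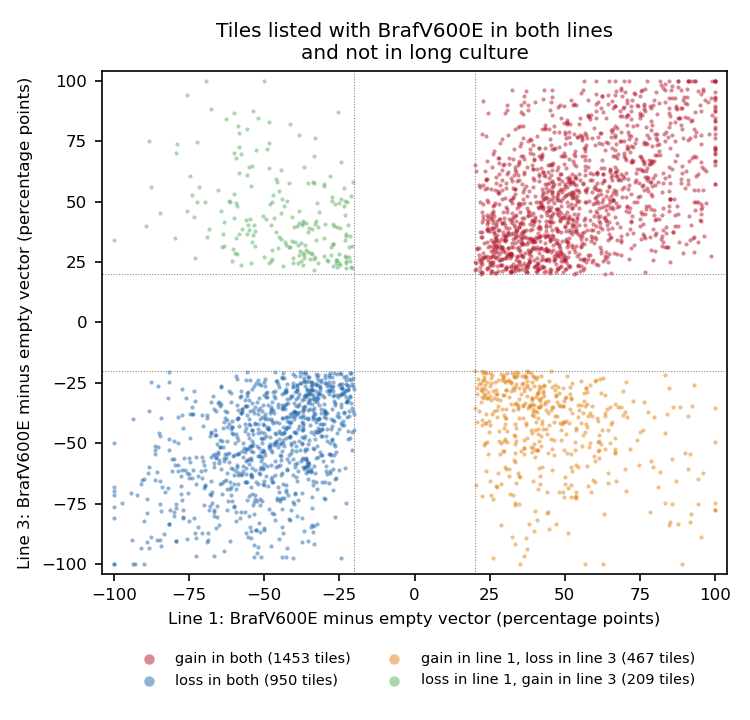
Methylation difference of each of the 3079 tiles in line 1 (x axis) and line 3 (y axis), in percentage points, BrafV600E minus EV, from the authors' deposited tables. Tiles in the upper right gained in both lines (1453) and those in the lower left lost in both (950); the empty band around 0 is the 20-point listing threshold.

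The tables list tiles at a difference of at least 20 points and a q-value under 0.01, so the members were chosen on the values just described and those values are a description. The smallest member difference was 20.0 points, and 411 members were under 25 points in at least 1 line. At the other end, 106 members differed by 80 points or more in both lines, 81 of them gains in both lines and 19 losses in both, and 6 differed by 100 points in both. In the same deposited tables, 38.8% of the tiles of line 1 were also listed in line 3, and 19.8% of those of line 3 were also listed in line 1. Gains made up 67.5% of the whole line 1 BrafV600E list and 40.4% of the line 3 list. The rule used these contrasts, so nothing is read from these shares.

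Sizes in the 2 lines were related only in part. Among tiles that gained in both lines, the lines differed by a median of 13.6 points and by 35.8 points or more in the most divergent 10%, and 561 tiles (38.6%) differed by at most 10 points between the lines. The correlation of the 2 lines across these tiles was r = 0.48 (Spearman rho 0.47). For losses in both lines the median was 11.9 points, with 410 tiles (43.2%) at most 10 points apart, r = 0.44 and rho = 0.43. These correlations are across tiles, which share libraries and passed the same thresholds. The line 1 change was the larger one in 766 of the 1453 gains and in 460 of the 950 losses.

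The same counts were made in the tiles excluded for long culture. Gains in both lines were 54.0% of those 2855 tiles and losses in both 15.4% (14.1% to 16.8%), so that among tiles with a shared direction 77.8% (75.9% to 79.6%) were gains, against 60.5% among the members. The intervals do not overlap, but no test of the difference was run. Shared direction was 69.4% (67.6% to 71.0%) among the excluded tiles.

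**Figure D2:**
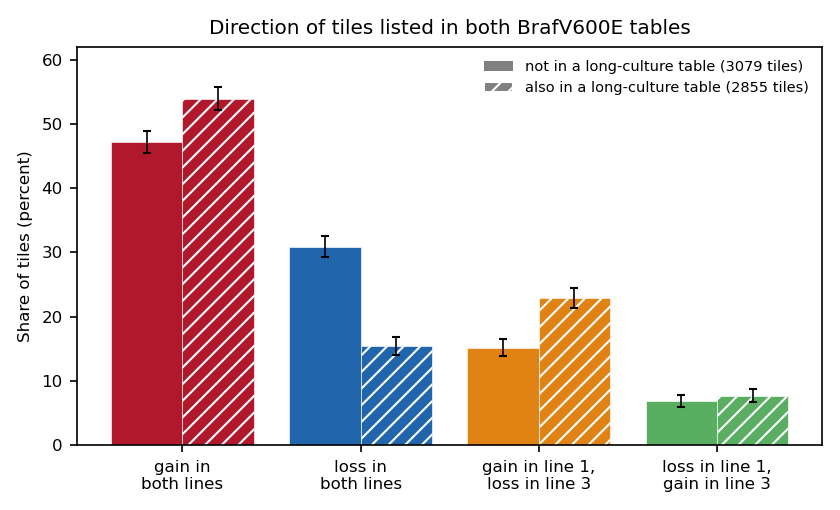
Percentage of tiles in each direction class, with exact 95% intervals, for BrafV600E-only tiles (plain bars) and for tiles also listed after long culture (hatched). Losses in both lines are 30.9% of the first group and 15.4% of the second.

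Position relative to genes was counted for gains and losses separately. Of tiles that gained in both lines, 25.4% (23.2% to 27.7%) lay within 1 kb of an end of a protein-coding gene, against 8.32% (6.64% to 10.3%) of losses in both and 22.9% of all listed tiles. The same order of gains and losses was present in the whole BrafV600E lists, at 33.5% and 18.7% in line 1 and 29.1% and 11.9% in line 3, and in the tiles also listed after long culture, at 44.6% and 19.8%. Gains overlapped a promoter window in 160 cases (11%) and losses in 23 (2.42%), against 7.96% of all listed tiles. The median distance to the nearest RefSeq start was 6679 bp for gains and 22784 bp for losses, over the 2983 members with a start on their chromosome in the promoter table, which has no entry for the chromosome of the other 96. More than 50 kb lay between the tile and a start in 13.4% of gains and 30.5% of losses. The median was 12854.5 bp over all listed tiles and 1712.5 bp for gains also listed after long culture. No test was run of these differences. Without the members that have a long-culture tile within 1 kb, the share of all members at gene ends was 11%, against 18.8% with them.

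**Figure D3:**
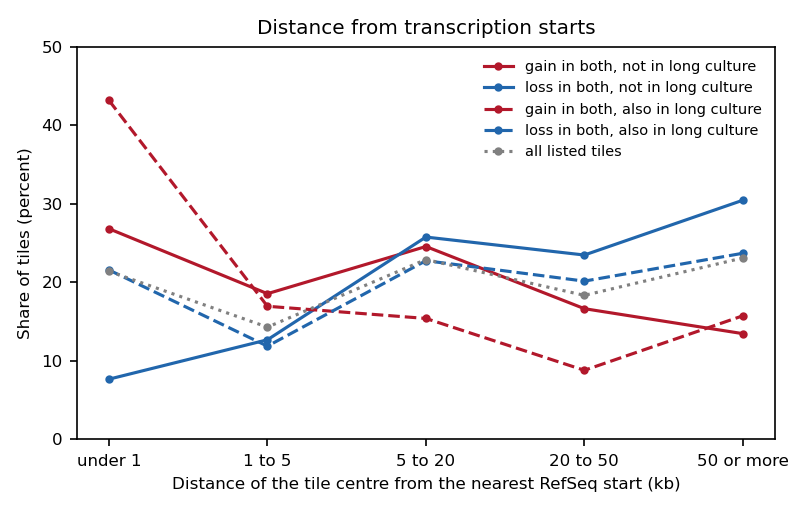
Percentage of tiles in each class of distance to the nearest RefSeq start, for gains (red) and losses (blue) in both lines, among BrafV600E-only tiles (solid), tiles also listed after long culture (dashed) and all listed tiles (grey). Under 1 kb lie 26.8% of the BrafV600E-only gains, 7.64% of the losses, 43.2% of the excluded gains and 21.6% of the excluded losses.

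The promoters that gained were CpG-dense. Their median was 21 CpG per 300 bp over 163 promoters, and 73.0% held 15 or more. Promoters overlapping a tile that lost in both lines had a median of 9.5 over 26 promoters, and 30.8% reached 15. Over all 32851 promoters the median was 7 and 34.6% reached 15, while promoters overlapping any listed tile, that is any tile called changed in 1 of the 8 tables, had a median of 20 and 67.5% reached 15. Promoters that were covered and unchanged were not analysed here.

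A tile absent from the long-culture tables may have been unchanged or not covered in those libraries, which the files do not separate. Of the members, 808 (26.2%, 24.7% to 27.8%) had a long-culture tile within 1 kb. It was 507 (34.9%) of gains in both lines and 107 (11.3%) of losses. Where such a neighbour existed, the nearest one had the same direction for 370 gains, the opposite direction for 112 and both directions for 25. For losses the counts were 46, 59 and 2. These counts depend on the long-culture lists themselves, in which 40.9% of tiles gained in line 1 and 71.9% in line 3. Of the 507 nearest neighbours of gains, 396 were listed in line 3. No test against these shares was run, so no agreement in direction is read from the counts. Tiles listed in just 1 BrafV600E table had such a neighbour in 17.7% of cases.

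Merging members within 500 bp gave 2853 regions, of which 2674 were single tiles, 145 held 2, 22 held 3, 11 held 4 and 1 held 5. The autosomes ranged from 44.8% (chromosome 2) to 59.6% (chromosome 17) in the share of tiles listed in both BrafV600E comparisons that were members, and chromosome X had 38 of 76.

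Of the 9422 protein-coding genes with any listed tile within their span or 1 kb on either side, 1499 (15.9%) held a member. In 709 of them (7.52%) all members gained in both lines, and in 341 (3.62%) all lost in both. The members of 311 genes moved in opposite directions in the lines, and 138 genes held a mixture. A gene with more listed tiles has more chances to hold a member. These shares are the background for the gene lists.

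Among genes whose members all gained in both lines, those with the most tiles included signalling and growth-factor genes. Gene values below are means over member tiles of the differences in the authors' deposited tables, line 1 before line 3, unless single tiles are named. Smad1, a transducer of BMP signals, held 4 tiles with mean differences of 77.0 points in line 1 and 80.2 in line 3, and 1 of them was at 100 points in both lines, which leaves 0% methylation in the control. Bcl9, a co-activator of beta-catenin, held 5 tiles with means of 66.6 and 52.9 points. Fgfr4, a fibroblast growth factor receptor, gained over 4 tiles from 117 bp before to 483 bp after its start (tile centres), with line 1 differences of 78.9 to 95.2 points and line 3 differences of 37.3 to 66.4. The line 1 values all lay above the line 3 values at this gene. Socs2, a suppressor of cytokine signalling, held 5 tiles with means of 90.1 points in line 1 and 39.5 in line 3. Pmepa1, an inhibitor of TGF-beta signalling, held 4 with means of 65.7 and 67.1.

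Enzymes and other cell biology genes were also among them. Znfx1, a zinc finger protein of RNA surveillance, held 4 tiles whose means were 89.4 points in line 1 and 89.3 in line 3. Hs3st3b1, which sulfates heparan sulfate, held 5 tiles in 1 region, with means of 65.2 and 51.9 points and a range of 21.1 to 100 in line 3. Tmem30b, a flippase subunit, held 4 tiles across its start, falling from 97.8 points 494 bp downstream to 26.9 points 106 bp upstream in line 1 and from 91.2 to 36.0 in line 3. Cyp26b1, which degrades retinoic acid, held 4 tiles with means of 63.9 and 62.7. The other genes of this rule were Arhgap27 (76.9 and 86.2), Hmx2 (78.1 and 67.9), Zfp422 (68.1 and 57.7), Rbm47 (61.4 and 62.2), Heg1 (60.1 and 60.7) and Efcab6 (57.4 and 56.9), each with 4 tiles and given as means of the deposited differences in line 1 and line 3. No long-culture tile was listed at Bcl9, Hs3st3b1, Znfx1, Zfp422 or Fgfr4. The other 10 of these 15 genes held other tiles that were listed after long culture. Cyp26b1 had 4 that gained in line 1 and 7 in line 3, Arhgap27 had 3 and 3, and Hmx2 had 5 in line 3. Some of these genes also held other tiles that lost with BrafV600E. In line 3 these were 3 at Arhgap27, 2 at Bcl9, 2 at Efcab6 and 1 at Hmx2. Heg1 had 1 such loss in line 1, and Socs2 had 1 in each line.

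Intestinal genes are given from the same deposited tables. Hnf4a, a nuclear receptor that maintains enterocyte identity, held 3 tiles with means of 74.2 and 76.9 points, and no long-culture tile was listed in it. With BrafV600E, 1 other tile of Hnf4a lost in line 3. Tcf7l2, the transcription factor that carries Wnt signals in the crypt, held 3 with means of 63.0 and 75.7. Other tiles of Tcf7l2 lost, 1 in line 1 and 3 in line 3 with BrafV600E, and 1 and 2 after long culture. Hopx, a homeodomain protein of reserve stem cells, held 2, at 81.9 and 80.6 points in line 1 and 98.3 and 78.0 in line 3. Lgr5, the R-spondin receptor that marks crypt base stem cells, held 1, at 35.0 points in line 1 and 81.2 in line 3. Cdx1, an intestinal homeobox factor, held 2 tiles with means of 65.5 and 35.7 points, and 4 other tiles that gained after long culture in line 1. Cdo1, a cysteine dioxygenase often methylated in colorectal cancer, held 2, at 78.8 and 100 points in line 1 and 53.2 and 69.7 in line 3. Other tiles of Cdo1 lost after long culture, 1 in line 1 and 4 in line 3. Runx3, a transcription factor of the gut and a known methylation target in gastrointestinal tumours, held 8 members, of which 7 gained in both lines and 1 gained in line 1 and lost in line 3. A group of 4 of them formed 1 region with means of 66.3 and 66.7 points. Other tiles of Runx3 gained after long culture, 3 in line 1 and 11 in line 3. Sox17 held no member, but 7 of its tiles gained with BrafV600E in line 1 and 9 in line 3, and 8 and 9 gained after long culture. Cdkn2a held no member either, with 2 tiles that lost with BrafV600E in line 1, 2 gains and 2 losses in line 3 and 4 long-culture gains in line 3.

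The genes with losses in both lines described here held 2 or 3 tiles each, and their values are again means over tiles of the authors' deposited differences, line 1 first. Adgrl3, an adhesion receptor of neurons, held 3 tiles within 1 kb of a RefSeq start that lies inside the annotated gene. They were at −34.6, −49.6 and −90.9 points in line 1 and −29.6, −40.0 and −66.7 in line 3. Over these 3 tiles the loss grew with distance from that start in both lines. Fgfr2, a fibroblast growth factor receptor, held 3 with means of −45.8 and −27.0 points. Nr5a2, a nuclear receptor of liver and intestine, held 3 with means of −46.2 and −38.2. S1pr2, a sphingosine-1-phosphate receptor, held 2 with means of −96.4 and −100 points. Auts2 (−58.0 and −48.9), Sall1 (−40.4 and −43.1) and Dscaml1 (−44.6 and −30.0) held 3 each. At Auts2, Sall1, Nr5a2, Dscaml1 and Fgfr2 other tiles gained, also with BrafV600E. In that comparison Auts2 had 9 gains and 7 losses in line 1 and 9 gains and 8 losses in line 3. Sall1 had 8 gains and 3 losses in line 1 and 2 gains and 3 losses in line 3. Nr5a2 had 4 losses in line 1, and 3 gains and 5 losses in line 3. Dscaml1 had 1 gain and 6 losses in line 1 and 2 gains and 16 losses in line 3. Fgfr2 had 1 gain and 5 losses in line 1 and 5 losses in line 3. After long culture, 18 tiles of Sall1 gained in line 3 and 3 did so in line 1. At Auts2, 12 tiles gained and 2 lost after long culture in line 3, and at Dscaml1 7 gained and 1 lost.

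At the shared start of Ndufa13, a subunit of respiratory complex I, and Tssk6, a testis kinase, 3 tiles were deposited at −40.5, −81.6 and −64.5 points in line 1 and −26.5, −24.7 and −26.4 in line 3. All 3 losses were deeper in line 1. Within 2 kb, 8 tiles lost in line 1 and 4 in line 3, while 3 tiles gained after long culture in line 1 and 2 in line 3. The 2 genes share these tiles, so they count once.

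The 6 genes that the rule took from the 311 with opposite directions are given from the authors' deposited tables. Hoxb2, a homeobox gene of positional identity, held 5 tiles, all gains in line 1 (26.1 to 78.3 points) and all losses in line 3 (−100 to −78.6). Over 2 kb around it, 7 of 7 listed tiles gained in line 1 and 8 of 8 lost in line 3. Dhrs13 and Flot2, neighbours that share 3 tiles, gained 81.1, 63.4 and 81.8 points in line 1 and differed by −68.0, −52.5 and −62.0 in line 3. Atg9b, of autophagy, held 3 tiles with means of −63.4 and 62.8 points, 2 of them shared with Nos3, the endothelial nitric oxide synthase (−57.4 and 71.1). Rxrg, a retinoid receptor, held 2 with means of 54.5 and −51.9. With 1 library in each line, a difference between lines cannot be separated from a difference between libraries.

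**Figure D4:**
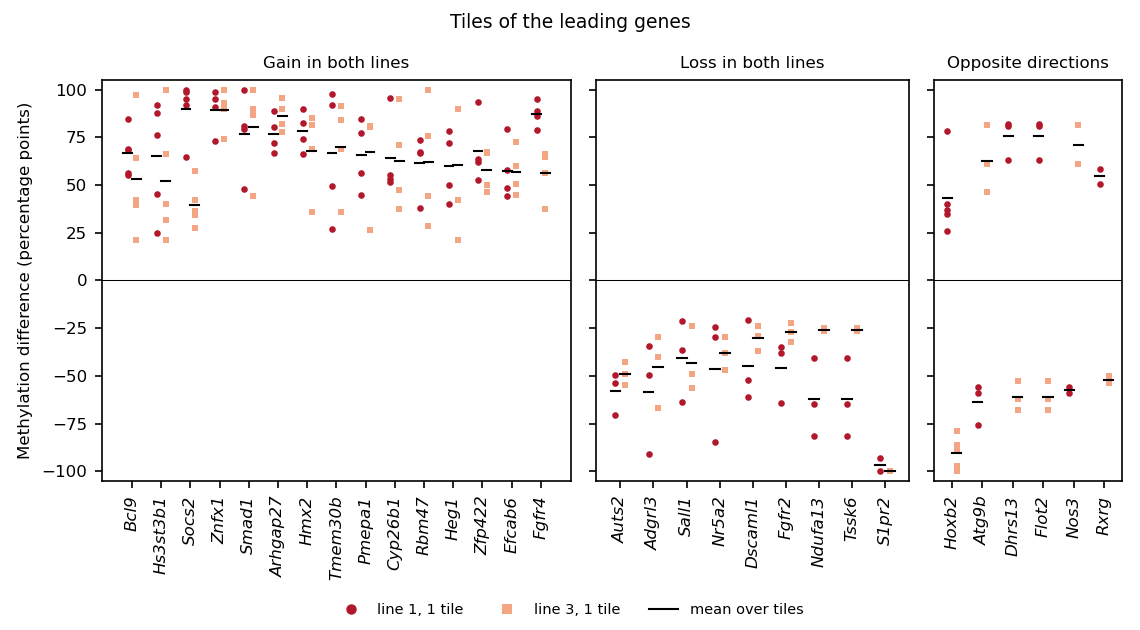
Deposited methylation difference (y axis, percentage points) of each member tile of the genes reported, with circles for line 1, squares for line 3 and short bars for the mean over tiles. Opposite-direction genes, such as Hoxb2 with means of 43.2 and −90.3, have the lines on either side of 0.

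**Figure D5:**
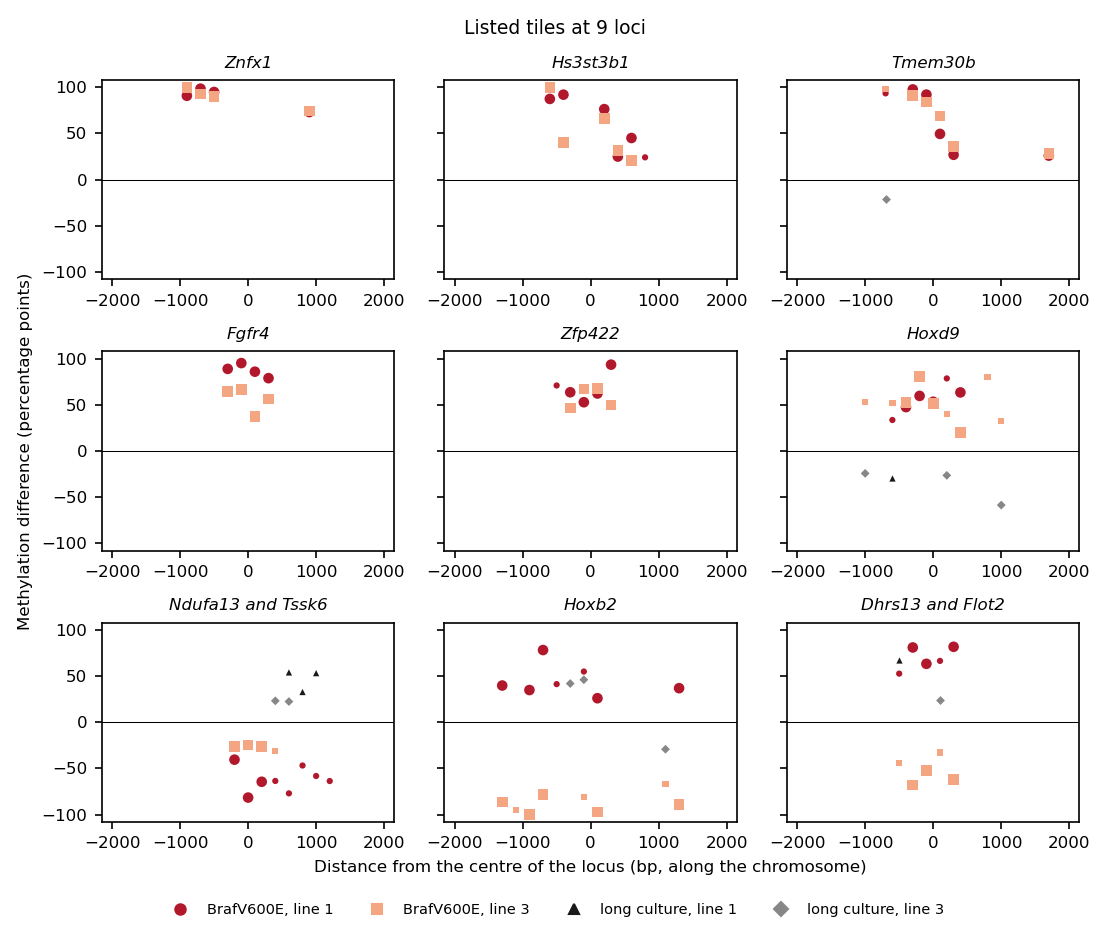
Every listed tile within 2 kb at 9 loci, by distance from the centre of the locus in bp; the y axis is the deposited methylation difference in percentage points and large symbols are members. Hoxb2 has gains in line 1 and losses in line 3, and Ndufa13 and Tssk6 have losses with BrafV600E and gains after long culture.

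Values of genes named from lists are deposited differences, or their means, in line 1 and then line 3. Gene lists were read against the 15.9% of listed genes that hold a member. Of 227 developmental transcription factors with a listed tile, 70 held one (30.8%), all gaining in 42, all losing in 3, opposite in 17 and mixed in 8. Hoxd9, a homeobox factor of the posterior body axis, is an example, with 4 tiles and means of 56.0 and 51.2 points, where tiles lost after long culture (1 in line 1 and 4 in line 3). Foxl2, a forkhead factor of the ovary, held 4 with means of 36.4 and 46.5. Unlike at Hoxd9, most long-culture tiles of Foxl2 gained: 2 gained and 1 lost in line 1, and 5 gained and 1 lost in line 3. The long-culture direction thus differed between Hoxd9 and Foxl2, and it was not counted over the whole list. Regulators of intestinal identity and lineage had 8 of 25 (32.0%), 7 of them gains, among them Foxa2 (61.6 and 78.5 points). Of these gains, Foxa2, Foxa3, Atoh1 and Gata4 are also counted among the developmental factors, so the shares of these lists are not separate observations. Intestinal stem cell genes had 4 of 18 (22.2%), all gains, among them Rgmb, a BMP co-receptor (95.5 and 73.8 points). Differentiated colon cell genes had 0 of 14 (0%), where a missing tile may have been unchanged or not covered. Both lists are short, and neither share was tested against the 15.9% or against the other. Genes of the TGF-beta and BMP pathways had 11 of 42 (26.2%), with 6 gains, 2 losses and 3 opposite. Examples are Smad9, a BMP transducer like Smad1, with 1 tile at 82.2 and 44.5 points, and Chrd, a secreted BMP antagonist, with 1 at 62.4 and 47.7. With BrafV600E, 2 other tiles of Smad9 lost in each line, and 1 other tile of Chrd lost in line 3.

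Other lists were near or below the background. Wnt antagonists and negative regulators had 3 of 33 (9.09%), none of which gained in both lines throughout. Methylator phenotype and colorectal cancer markers had 7 of 37 (18.9%), of which 5 gained. MAPK pathway and feedback genes had 3 of 21 (14.3%), of which 2 gained and 1 lost. Fos, an immediate-early factor, gained at 95.5 and 87.5 points, and the loss was Spry4 at −45.5 and −25.6. Chromatin genes had 4 of 29 (13.8%), with 1 gain, 2 losses and 1 opposite. Junction genes had 3 of 18 (16.7%), including Epcam, an epithelial adhesion molecule (57.5 and 55.6). Imprinted genes had 7 of 40 (17.5%), 4 of them losses, including Cdkn1c, a cell cycle inhibitor (−75.0 and −62.8), and Phlda2, a placental growth regulator (−64.7 and −34.5). With BrafV600E, 1 other tile of Cdkn1c gained in each line. Germline genes had 3 of 26 (11.5%), and markers of mesenchymal, immune, endothelial and neural cells 3 of 22 (13.6%). The lists differ in CpG density and in how many of their tiles were listed, and none was tested against the background.

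Micro-RNA genes were looked at after their values had been seen. Of 1005 hairpins in the RefSeq table, 131 lay within 1 kb of any listed tile and 15 within 1 kb of a member. Of the 15, 7 had tiles that gained in both lines, 5 had losses and 3 had opposite directions. Hairpins share tiles: the gains rest on 6 tiles, the losses on 2 and the opposite ones on 3. Mir434, Mir136, Mir432 and Mir3071 have 1 loss tile in common, and Mir9-2 and Mir203 each overlap another hairpin on the other strand. The mature sequences of 4 gains and 2 losses follow, with the seed (bases 2 to 8) in capitals.
miR-9-5p: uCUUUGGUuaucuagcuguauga
miR-125b-5p: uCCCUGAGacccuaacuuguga
miR-128-3p: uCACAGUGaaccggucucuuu
miR-203-3p: gUGAAAUGuuuaggaccacuag
miR-434-3p: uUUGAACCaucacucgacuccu
miR-136-5p: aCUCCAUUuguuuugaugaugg

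The 6 seeds are all different. In the authors' deposited tables, 2 tiles at Mir9-2 gained 38.9 and 56.2 points in line 1 and 44.4 and 57.9 in line 3. Mir125b-1 had a tile at 58.9 and 76.5 points, Mir128-2 at 63.6 and 52.2, and Mir203 at 24.2 and 22.4. Mir434 and Mir136 shared 1 tile at −39.8 points in line 1 and −45.2 in line 3, in the imprinted region that also holds Rtl1.

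The largest shared differences in the authors' deposited tables included tiles far from the nearest protein-coding gene. Gains of 100 points in both lines included tiles at C130074G19Rik, at Nek6, a mitotic kinase, and at Smad1. The Nek6 tile had q-values of 0.00901 in line 1 and 0.00525 in line 3, near the 0.01 limit. The tile nearest to Klf5, a transcription factor of crypt proliferation, gained 99.0 and 100 points and lies 80189 bp from that gene. Among losses, Aox1, an aldehyde oxidase, was at −100 points in both lines, 132 bp from its start. The tile nearest to Runx1, 180527 bp from it, was at −94.0 and −89.9. The start of a predicted gene, Gm41499, was closer to this tile, at 49742 bp.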

How the data were processed

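Reduced representation bisulfite libraries of 8 organoid samples (50 bp single-end reads) were processed by the authors. The submitters' processing notes name methylKit 1.7.4 and Bismark 0.14.3, with Trim Galore 0.4.4 and FastQC 0.11.7 for the reads, and the build GRCm38/mm10. The deposited tables, 1 of gains and 1 of losses for each of 4 comparisons, hold 200 bp tiles with a methylation difference, a p-value and a q-value. The deposited difference is in percentage points, the first-named library minus the second, positive in the gain tables and negative in the loss tables. No table gives read counts or methylation levels, so depth is unknown, no interval can be given for a tile, and no test was run. Tiles were joined on their coordinates with pandas 2.3.3 and Python 3.11.15, and the joins were tested on simulated tables. Genes and starts came from RefSeq (GRCm38.p6). A gene's window is its span and 1 kb on either side. Intervals for shares are exact Clopper-Pearson at 95%.

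Genes were named by a rule: the first 15 whose members all gained in both lines, 10 that all lost and 6 that were opposite, by number of tiles and then by the smaller mean, predicted genes being passed over; the largest tiles; the 6 regions with most tiles; up to 4 genes of each of 13 lists; and Cdx1, Cdo1, Sox17 and Cdkn2a. The members and lists were chosen with earlier results of these data known. Of the list symbols, 3 had no match. Some genes that the rule names are not reported here.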

Additional observations from a re-analysis of the deposited data

Results flagged for a closer look

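The 6 genes Hoxb2, Atg9b, Nos3, Dhrs13, Flot2 and Rxrg had members that all moved one way in line 1 and the opposite way in line 3. The difference between the lines was not tested, since each line has 1 library in each group, and the genes were chosen for this pattern. Values are means over the member tiles of the differences in the authors' deposited tables. Hoxb2 was at 43.2 points in line 1 and −90.3 in line 3. Atg9b was at −63.4 and 62.8, and Nos3, which shares tiles with it, at −57.4 and 71.1. Dhrs13 was at 75.4 and −60.8, and Flot2, on the same tiles, at 75.4 and −60.8. Rxrg was at 54.5 and −51.9.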

How the results depend on the processing

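No paired analysis was possible because the deposited tables hold no value for a single library, only the difference of 1 library against 1 within each line, and only for tiles past the listing threshold. Over 42 alternatives, 12 left the value within its interval (or a count within 1.5 times) and 30 moved it; none was a test, and the cause was not tested. The 3079 tiles became 1412 at a difference of at least 40 points, 1785 at q under 0.001 and 5934 with the long-culture tables ignored. The 78.0% with a shared direction became 85.1%, 82.1% and 73.9% under these 3 settings. Gains among them, 60.5%, became 63.3%, 68.6% and 68.3%, and were 52.9% without members near a long-culture tile and 57.8% with tiles merged within 500 bp. The 18.8% at gene ends became 14.7%, 22.6% and 28.6%, and 11% without members near a long-culture tile, 27.0% with a 2 kb window and, chosen after seeing the data, 26.3% with all kinds of gene. The 26.2% with a long-culture neighbour became 22.5% at 40 points and 31.1% at q under 0.001. It was 15.7% for adjacent tiles and 37.2% within 5 kb. With the long-culture tables ignored it was 61.7%. There each tile listed after long culture counted as its own neighbour, so this rise was fixed in advance. Leaving out a line gave 12921 to 22985 tiles, 36.4% to 66.2% gains, 14.0% to 27.2% at gene ends and 14.9% to 19.4% with a long-culture neighbour. The missing read counts limit every value: a tile can be absent because it was unchanged or not covered.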
